A study of Mus musculus with 2 samples.

Results

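Matrix metalloproteases, the related ADAM and ADAMTS proteases and the TIMP inhibitors were followed in single nuclei of regenerating mouse muscle. The members are all genes whose symbol is Mmp, Adam, Adamts or Timp followed by a number, with pseudogene and opposite-strand names left out. The rule gave 78 of 32285 listed genes, of which 22 are Mmp, 33 Adam, 19 Adamts and 4 Timp genes. Nuclei came from the tibialis anterior, which lifts the foot. The donors were male mice, 16 to 20 weeks old, with chronic kidney disease and with the femoral artery ligated 5 days earlier. There was 1 library labelled AHRfl/fl and 1 labelled AHRmKO, and both carry the same strain label, AHRtm3.1Bra/J bred to Tg(ACTA1-cre/Esr1*)2Kesr/J. AHR, the aryl hydrocarbon receptor, switches genes on when it binds small molecules such as toxins retained in kidney failure. The floxed allele can be cut by Cre, and the Cre of this transgene is driven by the skeletal actin promoter, so its direct action is limited to muscle fibres. Whether the AHRfl/fl mice carried the transgene, how Cre was induced and how many animals were pooled are not given in the sources used here. Kidney disease and ligation are common to both libraries, so no level from uninjured or kidney-healthy muscle stands beside these values.

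Matrix metalloproteases (MMPs) are zinc proteases that cut collagens and other matrix proteins outside the cell. ADAM proteases sit in the cell membrane and release the outer parts of other membrane proteins, while ADAMTS proteases are secreted and cut proteoglycans or the ends of procollagens. TIMPs bind the active site of MMPs and, to differing degrees, of ADAM and ADAMTS proteases. In injured muscle these enzymes are known for clearing and rebuilding the matrix around fibres, for letting leukocytes and satellite cells (the muscle stem cells) move, and for releasing growth factors.

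The library labelled AHRfl/fl held 151788328 unique molecular identifiers (UMIs, each marking 1 captured RNA molecule), and the library labelled AHRmKO held 113737134. Barcodes with 2000 or more UMIs numbered 19056 and 9015, and 43 of these barcodes occurred in both libraries. After limits on mitochondrial share and removal of likely doublets, 15832 and 7522 nuclei were left, and clustering gave 20 clusters. In 12 of these, over 90% of nuclei came from 1 library, and in these library and cell type cannot be told apart. Ahr, the targeted gene, had 314 UMIs (library labelled AHRfl/fl) against 295 (library labelled AHRmKO) in myofibre-like nuclei. These are levels of 30.4 (27.1 to 33.9) and 28.1 (25 to 31.5) UMIs per 1000000 UMIs (CPM), whose counting intervals overlap. Reads from outside the deleted stretch still count for the gene, so these levels do not check the deletion, and every direction given here is between libraries as labelled.

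Levels in CPM are taken over all UMIs of a class in a library. They are not scaled by gene length, so levels of different genes are not compared with each other. With 1 library per group no test between groups was possible, and all intervals are exact 95% intervals that cover counting error only. A log2 ratio divides the level in the library labelled AHRmKO by that in the other after adding 0.5 CPM to each, so that differences of low genes are understated. The interval of a ratio is taken from the counts without this addition, so for low genes it lies further from 0 than the printed ratio would place it. A ratio counts as past the fold when it is 2-fold or more with its interval on the same side of 0, among genes with at least 30 UMIs and 10 CPM in the higher library and in classes with 100 or more nuclei in both libraries. Values are given with the library labelled AHRfl/fl first throughout.

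The members were most abundant outside muscle fibres. All members together made up 5350 and 5911 CPM in fibroadipogenic or fibroblast-like nuclei (1460 and 634 nuclei, called fibroblast-like here), which are the matrix-producing cells of muscle. They made up 6214 and 5822 CPM in adipocyte-like nuclei (112 and 76), and 3898 and 4408 CPM in endothelial-like nuclei (243 and 132), which line the vessels. Satellite cell or myoblast-like nuclei (2709 and 2045) stood at 2418 and 1782 CPM and macrophage or monocyte-like nuclei (6485 and 2412) at 2129 and 1968 CPM. Myofibre-like nuclei (1844 and 2168) were lowest among the compared classes, at 1038 and 1119 CPM. Nuclei named immature myonucleus-like, after markers of newly fused fibres, came almost wholly from the library labelled AHRfl/fl (2262 against 6). They stood at 1623 CPM there. Cluster 15 (68 and 1582 nuclei) was named myofibre-like with 9 of 12 markers raised. It also had 8 of 11 immature myonucleus markers raised, so these classes were split narrowly. Immature myonucleus markers summed to 9216 and 10192 CPM in myofibre-like nuclei. The 6 nuclei are thus not a count of newly fused fibres in the library labelled AHRmKO.

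Of the 78 members, 44 had 100 or more UMIs in at least 1 class and are named with levels (12 Mmp, 14 Adam, 15 Adamts and 3 Timp genes). Another 29 had between 1 and 273 UMIs in all nuclei, among them Mmp3 with 103, Mmp8 with 105, Mmp10 with 49 and Timp4 with 174. No UMI was found for Adam6a, Adam6b, Adam26a, Adam26b and Mmp7. Of the 44 named members, 17 (38.6%) had their highest level in fibroblast-like nuclei, where 9.94% of all 14392 genes with the same minimum did. These 17 are Adam9, Adam32, Adamts2, Adamts3, Adamts6, Adamts10, Adamts12, Adamts17, Mmp2, Mmp9, Mmp11, Mmp13, Mmp14, Mmp16, Mmp19, Mmp23 and Timp1. Endothelial-like nuclei were highest for 7 (15.9%, against 12.1% of all genes), macrophage-like nuclei for 6 (13.6%, against 21.4%) and adipocyte-like nuclei for 5 (11.4%, against 12.8%). Immature myonucleus-like nuclei were highest for 4 (9.09%, against 11.5%), satellite-like nuclei for 4 (9.09%, against 22.7%) and myofibre-like nuclei for 1, Adamts20 (2.27%, against 9.48%). The members had been left out of the genes used for clustering, so the clusters were not drawn on them.

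**Figure D1:**
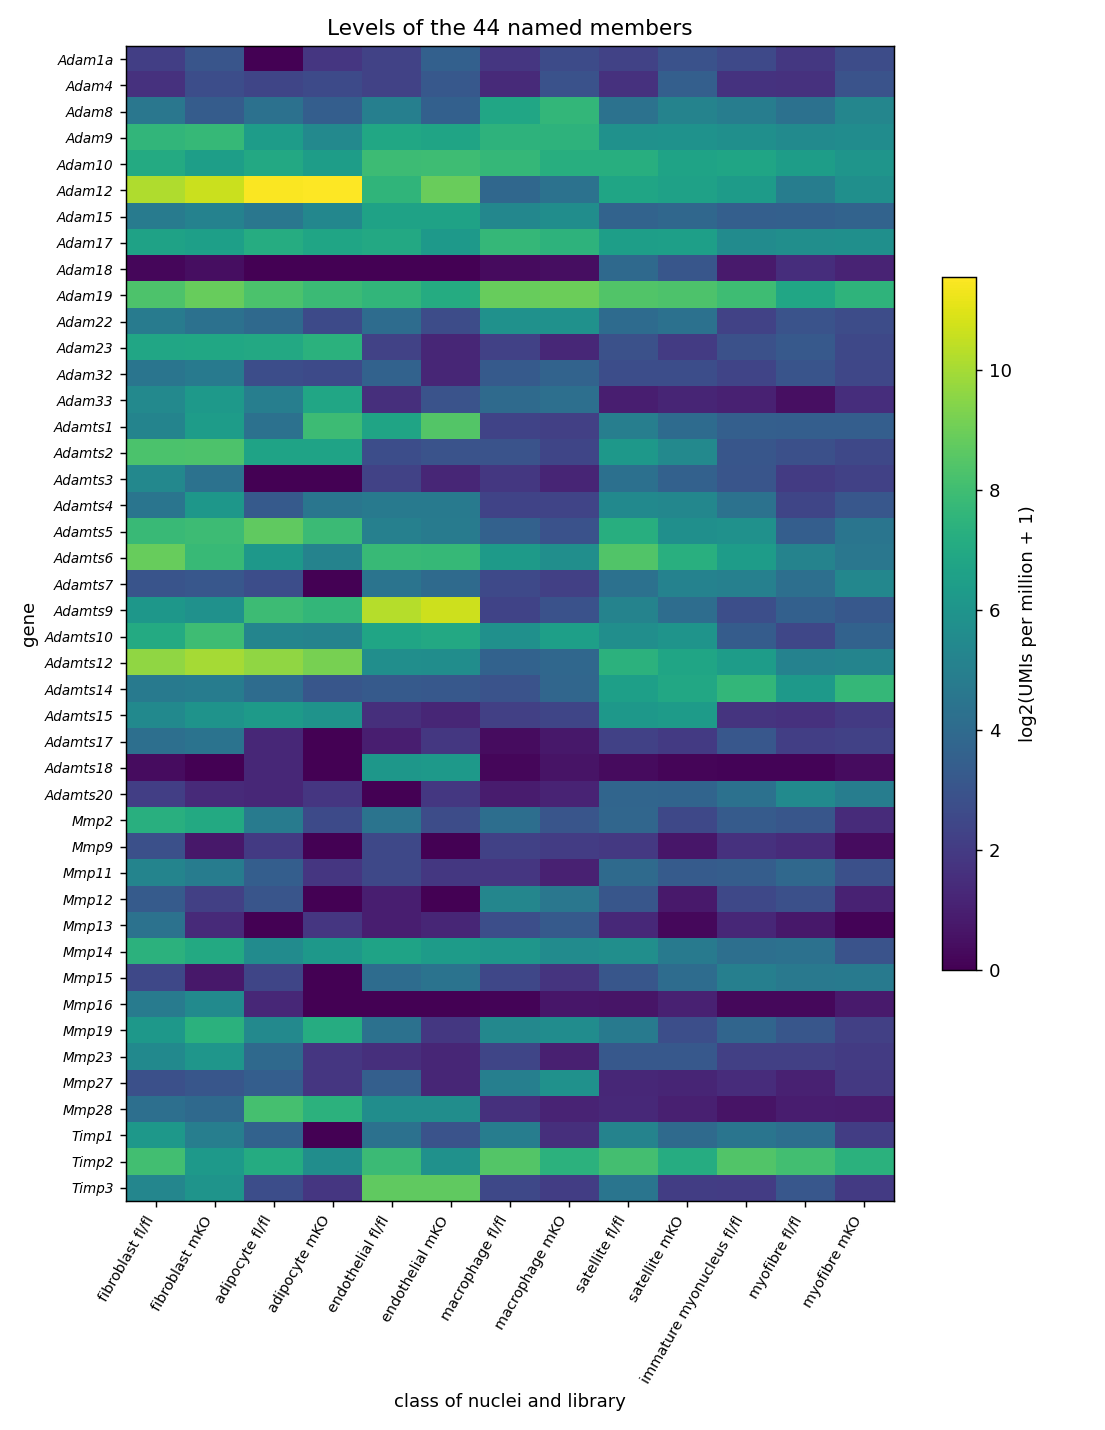
Levels of the 44 named members (rows) in each class of nuclei and library (columns), as log2(CPM + 1), with fl/fl for the library labelled AHRfl/fl and mKO for the library labelled AHRmKO. Adam12 and Adamts12 are bright in fibroblast-like and adipocyte-like columns, Adamts9, Adamts18 and Timp3 in endothelial-like ones, and Mmp12 and Mmp27 in macrophage-like ones. The immature myonucleus-like class is shown for the library labelled AHRfl/fl only, since the other has 6 such nuclei.

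Some members marked a single class by a wide margin. Adamts18 stood at 68.3 and 75.2 CPM in endothelial-like nuclei, while the next class over both libraries, adipocyte-like nuclei, was at 0.911 CPM (1 UMI). The folds between classes that follow are over both libraries with 0.5 CPM added to each level. Timp3, an inhibitor that binds the matrix and also blocks ADAM17 and several ADAMTS enzymes, was at 432 and 422 CPM there, 9.25-fold above the next class. Adamts9, a secreted protease that cleaves the proteoglycan versican, was at 1244 and 1651 CPM, 6.24-fold above. Mmp16, a membrane-type MMP, stood at 27.0 and 45.0 CPM in fibroblast-like nuclei, with the next class again at 0.911 CPM (1 UMI), and there Mmp2 (gelatinase A, which cuts denatured and basement-membrane collagen) was 7.52-fold higher. Mmp28 stood out in adipocyte-like nuclei at 285 and 173 CPM, 4.89-fold above endothelial-like nuclei. For other members the first and second class did not differ clearly: Timp2 was 1.16-fold, Adam9 1.15-fold and Adamts15 1.06-fold above the second class.

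The comparison between libraries asks what differs in the ischaemic limb when AHR is deleted in muscle fibres, which is the question the series title and design state. Over the 5 compared classes, 126 pairs of a member and a class passed the minimums, from 42 members. Of these pairs, 12 (9.52%) were past the fold and higher in the library labelled AHRmKO, where 5.92% of all gene and class pairs were. Lower pairs numbered 21 (16.7%), where 14.2% of all pairs were, so both shares were near or modestly above the background. By class, 2 of 18 members were higher and 2 lower in endothelial-like nuclei (background 4.09% higher and 18.6% lower). In fibroblast-like nuclei 3 of 34 were higher and 6 lower (5.47% and 14.5%), and in macrophage-like nuclei 0 of 22 were higher and 3 lower (3.94% and 13.5%). In myofibre-like nuclei 5 of 21 were higher and 3 lower (8.9% and 13.5%), and in satellite-like nuclei 2 of 31 were higher and 7 lower (6.57% and 12.4%). The median log2 ratio of the members was -0.55 in satellite-like nuclei, against -0.03 for all genes tested there. In the other 4 classes it lay between -0.05 and 0.11, against -0.09 to 0.02 for all genes.

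In macrophage-like, satellite-like and myofibre-like nuclei, different clusters hold most of the class in each library. Macrophage-like nuclei were mostly in clusters 0, 1 and 2 for the library labelled AHRfl/fl, but in cluster 10 for the other, with only the cycling cluster 12 shared (616 and 433 nuclei). Satellite-like nuclei lay mostly in cluster 4 and cluster 6, with the cycling cluster 5 shared (963 and 798 nuclei). Cluster 6 also had over 100 nuclei of each (130 and 1212), but 90.3% of it came from the library labelled AHRmKO, so it is 1 of the 12 clusters named above. Cluster 4 (1616 and 35 nuclei) was named with 6 of 10 satellite cell markers raised, and 5 of 12 fibroblast markers were raised in it too. Cluster 6 was named with 5 of 10 raised, next to 4 of 12 myofibre markers. Myofibre-like nuclei lay mostly in cluster 7 and in clusters 15 and 19. Fibroblast-like and endothelial-like nuclei each formed 1 cluster with nuclei of both libraries. Markers of other cell types moved with the library too: the 12 macrophage markers summed to 2837 and 270 CPM in endothelial-like nuclei and to 2106 and 318 CPM in the fibroblast-like class, with all 12 lower in the library labelled AHRmKO and none at 0. The 12 fibroblast markers summed to 1050 and 276 CPM in macrophage-like nuclei (10 of 12 lower), and to 695 and 259 CPM in myofibre-like nuclei (10 of 12 lower). In satellite-like nuclei, the class with the most lower members, macrophage markers summed to 1328 and 352 CPM and fibroblast markers to 2038 and 1199 CPM, with all 12 of each list lower and none at 0. Myofibre markers went the other way there, at 4682 and 11897 CPM (5 of 12 lower). Immature myonucleus markers summed to 1356 and 273 CPM in endothelial-like nuclei and to 2232 and 1012 CPM in fibroblast-like nuclei (all 11 lower). Some lists were not lower. In fibroblast-like nuclei pericyte or smooth muscle markers summed to 622 and 803 CPM and adipocyte markers to 1231 and 1473 CPM. In macrophage-like nuclei endothelial markers summed to 61.5 and 86.3 CPM (2 of 10 lower). The part of these markers in the members' ratios was not tested.

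**Figure D2:**
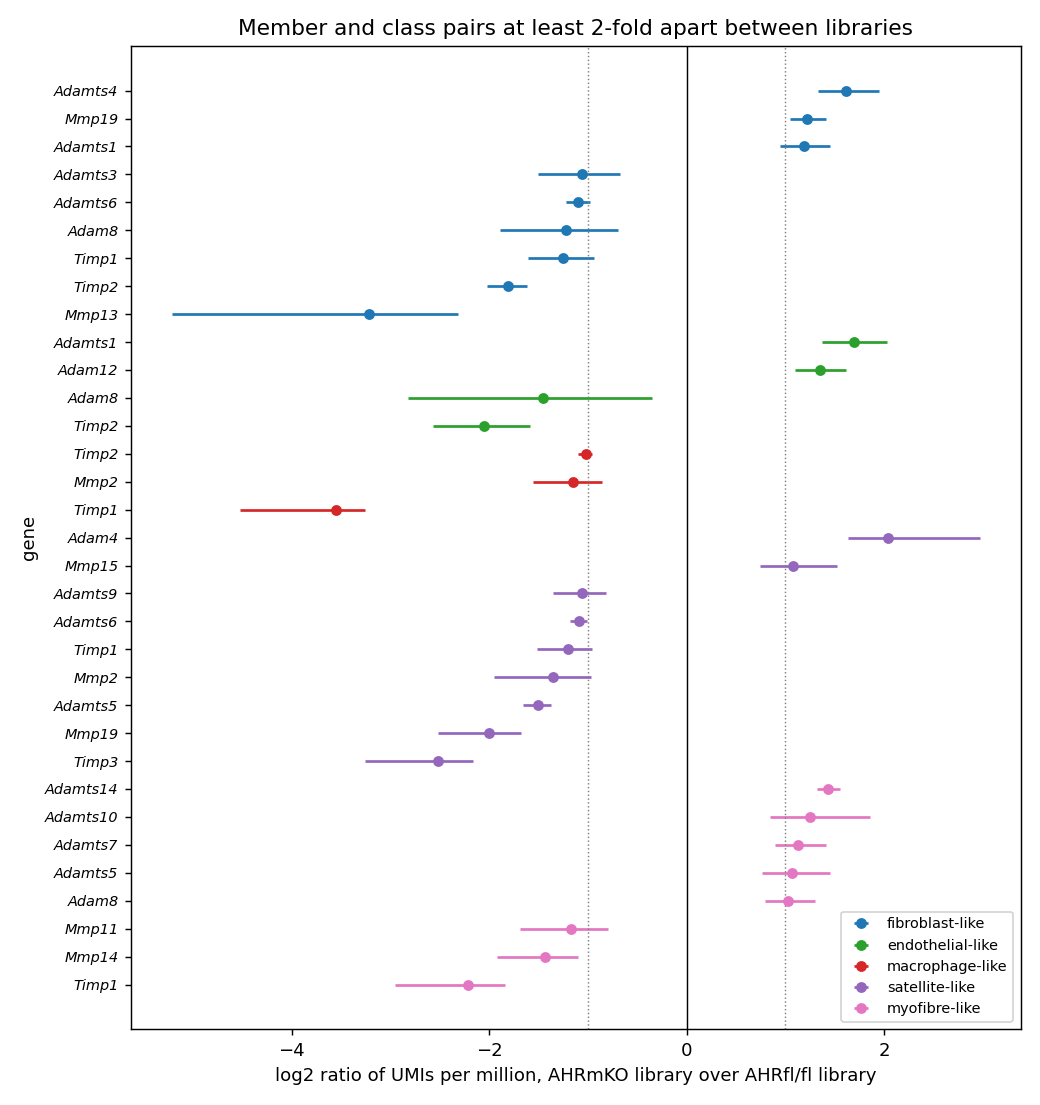
The 33 pairs of a member and a class that were at least 2-fold apart, as the log2 ratio of CPM, library labelled AHRmKO over library labelled AHRfl/fl. Points are ratios, bars exact 95% counting intervals, colours classes, and dotted lines mark 2-fold. No point for Timp1, Timp2 or Timp3 lies to the right of 0, and the 3 fibroblast-like points to the right are Adamts4, Mmp19 and Adamts1.

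Of the inhibitors, Timp1, Timp2 and Timp3 passed the minimums, in 12 pairs of a gene and a class. None of these (0) was past the fold and higher in the library labelled AHRmKO and 8 were lower, where 5.92% and 14.2% of all gene and class pairs were. Timp1, a secreted inhibitor induced by many growth factors and cytokines (chromosome X, 20870166 to 20874735, plus strand, GRCm38), was highest in fibroblast-like nuclei, at 70.6 CPM (496 UMIs) and 29.3 CPM (90 UMIs), giving a log2 ratio of -1.25 (-1.61 to -0.94). In satellite-like nuclei it stood at 35.0 and 14.9 CPM, a ratio of -1.21. In macrophage-like nuclei it stood at 28.5 CPM (627 UMIs) and 1.97 CPM (23 UMIs), a ratio of -3.55 (-4.52 to -3.25). In myofibre-like nuclei it stood at 16.8 and 3.24 CPM, a ratio of -2.21. Timp1 was thus lower in the library labelled AHRmKO in each of the 4 classes where it passed the minimums.

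Free RNA, which leaks from broken cells into every droplet, carried a difference of the same direction. Barcodes of 200 to under 500 UMIs were taken as droplets with no nucleus, which was not tested. In them, the profile used first here, Timp1 stood at 151 CPM (library labelled AHRfl/fl) against 10.6 CPM, and Timp2 at 1061 and 179 CPM. The difference was smaller in barcodes with at most 100 UMIs, at 83.7 and 24.7 CPM for Timp1 and 588 and 232 CPM for Timp2. From this profile, free RNA alone was estimated to give Timp1 levels of 27.8 and 2.43 CPM in macrophage-like nuclei, next to measured values of 28.5 and 1.97. In myofibre-like nuclei the estimates were 19.8 and 2.25 CPM, next to 16.8 and 3.24. By a second profile, that of barcodes with at most 100 UMIs, they were 26.7 and 4.65 CPM in macrophage-like nuclei and 17.6 and 3.49 CPM in myofibre-like nuclei. The measured Timp1 levels of these 2 classes thus lay near or below both estimates. In fibroblast-like nuclei the estimates were 22.1 and 1.73 CPM, below the measured 70.6 and 29.3, and with these UMIs subtracted the ratio was -0.78 (-1.11 with the second profile). When the free RNA of the first profile was subtracted, the Timp1 ratio went from -1.21 to 0.13 in satellite-like nuclei and from -2.21 to 1.75 in myofibre-like nuclei. In the latter, the measured level of the library labelled AHRfl/fl (16.8 CPM) lay below its estimate (19.8 CPM), so nothing was left there. The 1.75 thus rests on the 0.5 CPM added to each level and gives no size of a difference. In macrophage-like nuclei the Timp1 ratio went from -3.55 to -1.36. There nothing was left in the library labelled AHRmKO (1.97 CPM, below the estimate of 2.43), so the -1.36 also rests on the 0.5 CPM added. With the second it went to -0.54 in satellite-like nuclei, and nothing was left in myofibre-like nuclei of either library.

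Timp2, which binds proMMP2 on the cell surface and takes part in its activation by MMP14 (chromosome 11, 118301069 to 118355740, minus strand), was at 235 CPM (248 UMIs) and 56.4 CPM (42 UMIs) in endothelial-like nuclei, giving a log2 ratio of -2.05 (-2.57 to -1.58). In fibroblast-like nuclei it stood at 266 and 75.6 CPM, a ratio of -1.81. In macrophage-like nuclei it stood at 353 and 173 CPM, a ratio of -1.02. Satellite-like nuclei (273 and 144 CPM, ratio -0.93) and myofibre-like nuclei (269 and 166 CPM, ratio -0.70) did not reach 2-fold. Within the shared cycling satellite-like cluster 5, Timp2 was past the fold, at 252 and 120 CPM (ratio -1.06). It was short of 2-fold within cluster 6 (ratio -0.94) and within the macrophage-like cluster 12 (ratio -0.99). The free RNA estimates for Timp2 were 166 and 23.7 CPM for endothelial-like nuclei, 156 and 29.2 CPM for fibroblast-like nuclei and 196 and 40.9 CPM for macrophage-like nuclei. With free RNA of the first profile subtracted, the Timp2 ratio was -1.14 in endothelial-like nuclei, -1.23 in fibroblast-like nuclei and -0.22 in macrophage-like nuclei. With the second profile it was -1.56, -1.58 and -0.59.

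Timp3 (chromosome 10, 86300372 to 86349506, plus strand) behaved differently by class. In endothelial-like nuclei, where it was highest, it stood at 432 CPM (455 UMIs) and 422 CPM (314 UMIs), giving a log2 ratio of -0.03 (-0.25 to 0.18, which includes 0). In fibroblast-like nuclei it stood at 38.6 and 62.2 CPM, a ratio of 0.68 that did not reach 2-fold. In satellite-like nuclei it stood at 21.4 CPM (251 UMIs) and 3.32 CPM (33 UMIs), a ratio of -2.52 (-3.26 to -2.16), and the second value compares with free RNA estimates of 3.01 and 1.5 CPM by the first and second profile. Within the shared cycling cluster 5 the satellite-like difference had the same direction, at 11.4 and 1.94 CPM, and in cluster 6 Timp3 had only 3 and 21 UMIs (7.31 and 4.17 CPM). Timp4, with 174 UMIs in all, did not pass the minimums: its levels were 31.5 and 10.0 CPM in adipocyte-like nuclei (22 and 4 UMIs) and 25.6 and 10.7 CPM in endothelial-like nuclei (27 and 8 UMIs).

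**Figure D3:**
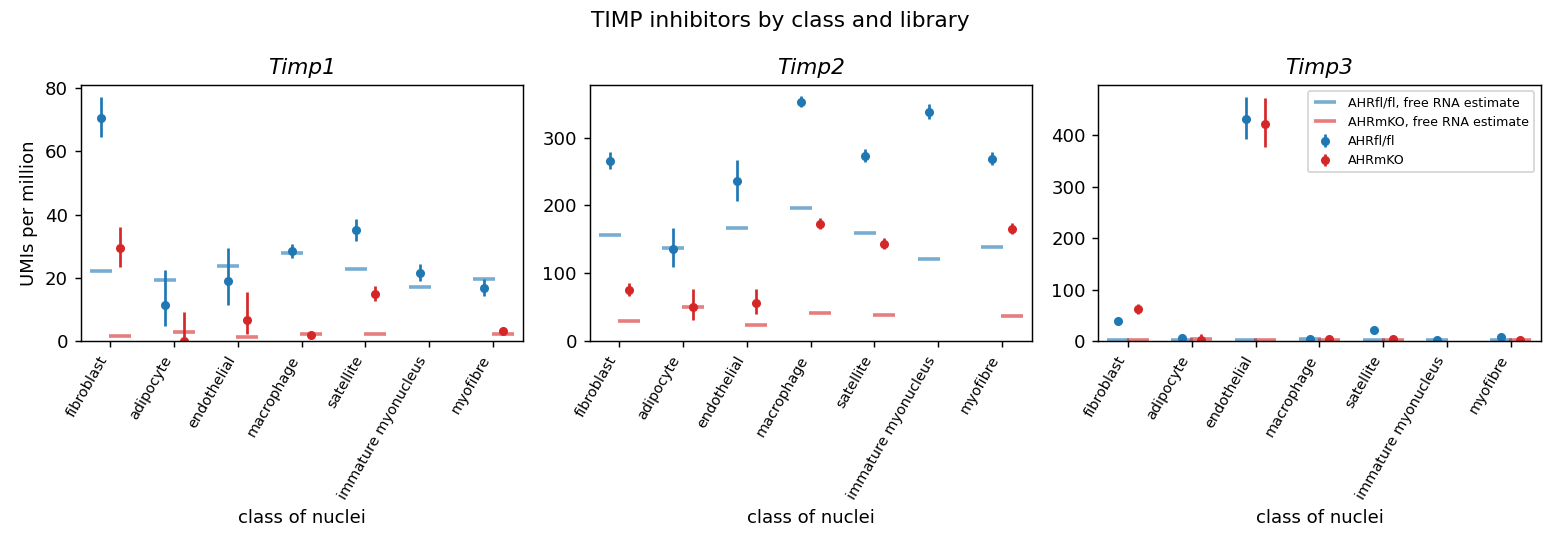
CPM of Timp1, Timp2 and Timp3 by class, in blue for the library labelled AHRfl/fl and red for the library labelled AHRmKO, with exact 95% counting intervals. Short horizontal marks give the level that free RNA of barcodes with 200 to under 500 UMIs was estimated to add. Timp1 of macrophage-like nuclei sits on its mark in both libraries, and Timp3 of endothelial-like nuclei stands at 432 and 422 in the 2 libraries.

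The RefSeq promoter windows (250 bases before to 50 bases after a start, GRCm38.p6) of Timp1, Timp2 and Timp3 each hold the 5-letter core GCGTG of the site that AHR and its partner ARNT bind. The window of Timp4 does not hold these letters. The 3 matches are shown because AHR is the gene targeted in this study. The core is in capitals, on the strand of the gene, and starts 206, 113 and 69 bases before the RefSeq start. The Timp1 and Timp3 windows lie inside introns of Syn1 and Syn3 on the opposite strand, and the Timp2 window inside an intron of a longer Timp2 transcript in GENCODE M21.
Timp1, chrX:20869948-20869976, plus strand: agtagatgaaagGCGTGagaaagaagtta
Timp2, chr11:118355508-118355536, minus strand: ccctacagcgcaGCGTGccaggtggtgcg
Timp3, chr10:86300331-86300359, plus strand: gcccacccactcGCGTGcccacaactgca
Counting either strand, GCGTG was present in 19 of 53 member promoters (35.8%; 48 of the 78 members matched) and in 32.4% of all 32851 promoters of the same length, so it is a common run of letters. A match is a description of the sequence, not a bound site.

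Gelatinases and membrane-type MMPs act together at the cell surface, since MMP14 activates proMMP2. Mmp2 was at 155 CPM (1091 UMIs) and 128 CPM (394 UMIs) in fibroblast-like nuclei, giving a log2 ratio of -0.27 (-0.44 to -0.11), short of 2-fold. Mmp14 had levels of 170 CPM (1195 UMIs) and 131 CPM (401 UMIs), a ratio of -0.38. These nuclei had the highest level of both genes, but macrophage-like nuclei held more Mmp14 UMIs (1479 and 544). In classes where Mmp2 is low the ratios were past the fold, at 17.0 and 7.38 CPM in macrophage-like nuclei (ratio -1.15) and 12.9 and 4.73 CPM in satellite-like nuclei (ratio -1.36). For Mmp2 the free RNA estimates were 9.54 and 4.06 CPM in the first of these and 7.79 and 3.76 CPM in the second by the profile of 200 to under 500 UMIs, and 14.5 and 5.23 CPM and 11 and 3.94 CPM by that of at most 100. With these subtracted the Mmp2 ratios were -1.05 and -1.89 by the former profile and -0.39 and -1.10 by the latter. Of these ratios only -0.39 is short of 2-fold. The levels left were under the 10 CPM minimum, so none counts as past the fold.

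Mmp14 in myofibre-like nuclei was at 19.0 and 6.67 CPM, giving a log2 ratio of -1.44, next to free RNA estimates of 16.8 and 8.14 CPM with 200 to under 500 UMIs (14.2 and 7.54 by the other profile). It did not reach 2-fold in satellite-like nuclei (50.8 and 26.3 CPM, ratio -0.94) or in macrophage-like nuclei (67.2 and 46.7 CPM, ratio -0.52). Mmp15, a membrane-type MMP highest in immature myonucleus-like nuclei, was at 7.43 and 16.2 CPM in satellite-like nuclei, a ratio of 1.07. The Mmp15 difference stayed past the fold under 9 of 15 settings, fell to 0.39 with no mitochondrial limit, and was 0.87 in cluster 5 and 0.62 in cluster 6. In myofibre-like nuclei Mmp15 was at 24.8 and 25.4 CPM, a ratio of 0.03. Mmp16 was at 27.0 and 45.0 CPM in fibroblast-like nuclei, a ratio of 0.72 that did not reach 2-fold.

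Collagenases, stromelysins, the macrophage elastase and a few relatives lie side by side on mouse chromosome 9. In the 427 kb from 7272514 to 7699585 (GRCm38), 9 members follow each other: Mmp13, Mmp12, Mmp1b, Mmp3, Mmp10, Mmp8, Mmp27, Mmp20 and Mmp7. They held 3767 UMIs in all nuclei, nearly all from Mmp12, Mmp27 and Mmp13. Promoters of 7 of the 9 hold a match to TGANTCA, the site of the AP-1 transcription factors (dimers such as FOS with JUN), and the 80 bases before the RefSeq start are shown for 4 of them, with the match in capitals. It starts 44, 35, 46 and 63 bases before the start in the order shown.
Mmp12, chr9:7347294-7347373, plus strand: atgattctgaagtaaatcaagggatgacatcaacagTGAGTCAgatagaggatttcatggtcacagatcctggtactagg
Mmp13, chr9:7272434-7272513, plus strand: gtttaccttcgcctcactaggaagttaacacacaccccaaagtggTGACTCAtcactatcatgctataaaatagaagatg
Mmp3, chr9:7445742-7445821, plus strand: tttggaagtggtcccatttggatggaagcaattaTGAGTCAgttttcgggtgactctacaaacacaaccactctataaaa
Mmp10, chr9:7502262-7502341, plus strand: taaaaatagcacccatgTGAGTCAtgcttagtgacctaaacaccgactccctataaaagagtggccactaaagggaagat
Counting either strand, TGANTCA was in 12 of 53 member promoters (22.6%) and in 7.81% of all 32851. Mmp27 and Mmp8 are the 2 of the 9 without it in this window. Mmp12 and Mmp7 each have a second RefSeq window without a match, and that of Mmp12 (chr9:7344147-7344446) lies upstream of the one shown. The Mmp12 window shown lies in an intron of longer GENCODE transcripts. These neighbours did not share a class: Mmp13 was highest in fibroblast-like nuclei, Mmp12 and Mmp27 in macrophage-like nuclei.

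Mmp13, the main interstitial collagenase of the mouse, was at 19.4 CPM (136 UMIs) and 1.63 CPM (5 UMIs) in fibroblast-like nuclei, giving a log2 ratio of -3.22 (-5.22 to -2.31). Most of this came from few nuclei. Fibroblast-like nuclei were clustered again, without the members and as a step added after the data had been seen. Of these, 57 nuclei formed a subcluster led by Col11a1, Edil3 and Mkx. The sum over the 8 tenocyte markers was higher there than in any other subcluster (2548 CPM). This subcluster, F6, held 94 of the 141 Mmp13 UMIs, at 272 CPM. Another 31 UMIs lay in F4, at 19.0 CPM, a subcluster with macrophage genes and no nucleus of the library labelled AHRmKO. F1, F2, F3, F5 and F7 were at 0 to 5.0 CPM. In F6, the library labelled AHRfl/fl gave 41 nuclei with 93 of these UMIs, and the other gave 16 nuclei with 1. In macrophage-like nuclei Mmp13 was at 5.91 and 8.75 CPM (130 and 102 UMIs), under the 10 CPM minimum.

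Mmp12, the macrophage elastase, was at 38.0 CPM (836 UMIs) and 22.8 CPM (266 UMIs) in macrophage-like nuclei, giving a log2 ratio of -0.72 (-0.94 to -0.54). Its UMIs were concentrated in cluster 2, led by Alcam, Atp6v0d2 and Gpnmb, a protein of lipid-laden and tissue-repairing macrophages. There it stood at 153 CPM, with 598 UMIs in 119 of 1091 nuclei (10.9%), where 1 of 375 endothelial-like nuclei (0.267%) had a Mmp12 UMI at median depths of 3065 and 3667 UMIs. Fibroblast-like nuclei, the class with the next highest level, had more Mmp12, at 8.83 CPM (62 UMIs) and 3.58 CPM (11 UMIs). The other macrophage-like clusters were at 10.4 to 29.5 CPM. In cluster 10, which came almost wholly from the library labelled AHRmKO, 261 UMIs lay in 23 of 1958 nuclei. In the shared cycling cluster 12 Mmp12 was at 21.8 CPM (60 UMIs) and 1.88 CPM (5 UMIs).

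Mmp27 was at 30.4 CPM (668 UMIs) and 55.8 CPM (651 UMIs) in macrophage-like nuclei, giving a log2 ratio of 0.87 (0.72 to 1.04) that did not reach 2-fold. It was highest in clusters 12 and 10, at 58.6 and 52.3 CPM, and stood at 23.1 to 33.4 CPM in clusters 0, 1 and 2. Mmp12 and Mmp27 thus peaked in different macrophage-like clusters. Mmp11 (stromelysin 3), which lies in the same stretch of DNA as the more abundant Chchd10 on the opposite strand, was at 36.6 and 28.0 CPM in fibroblast-like nuclei (ratio -0.38) and at 14.1 and 6.0 CPM in myofibre-like nuclei (ratio -1.17). The Mmp11 ratio in myofibre-like nuclei turned to 1.35 at Leiden resolution 0.4 and to 1.28 with a minimum of 4000 UMIs. Since strand use in counting is not given, reads of Mmp11 and Chchd10 cannot be told apart with certainty.

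Mmp19 and Mmp9 had patterns of their own. Mmp19, a secreted MMP with basement-membrane substrates, was at 70.7 CPM (497 UMIs) and 166 CPM (508 UMIs) in fibroblast-like nuclei, giving a log2 ratio of 1.22 (1.04 to 1.41). In satellite-like nuclei it went the other way, at 25.2 CPM (295 UMIs) and 5.94 CPM (59 UMIs), a ratio of -2.00 (-2.51 to -1.68), and in the shared cluster 5 it stood at 21.2 and 4.74 CPM. In cluster 6 it stood at 19.5 CPM (8 UMIs) and 7.14 CPM (36 UMIs), under the minimums. In macrophage-like nuclei it stood at 40.4 and 48.6 CPM, a ratio of 0.26. Mmp9 (gelatinase B) was at most 6.12 CPM in any named class but reached 399 CPM in the unnamed cluster 14, which is described with the closing observations.

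**Figure D4:**
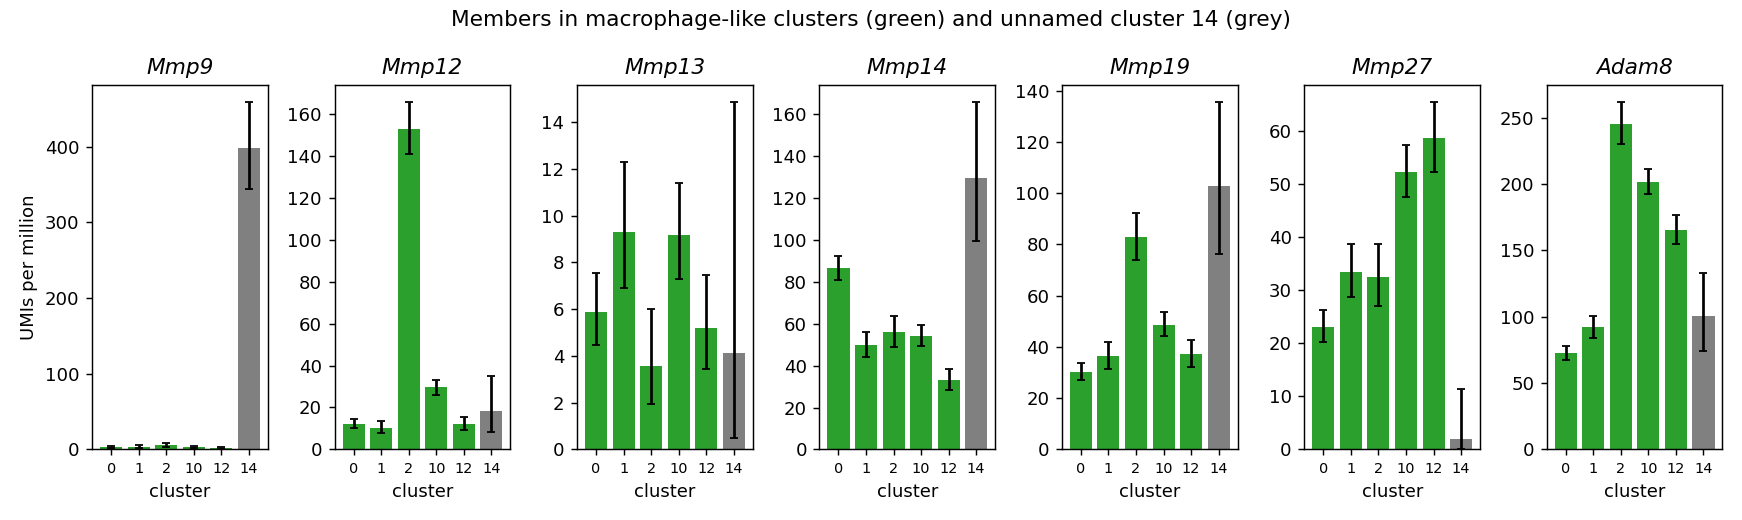
CPM of 7 members in the macrophage-like clusters 0, 1, 2, 10 and 12 (green) and in the unnamed cluster 14 (grey), with exact 95% counting intervals over both libraries, each panel on its own axis from 0. Clusters 0, 1 and 2 came almost wholly from the library labelled AHRfl/fl and cluster 10 from the other. Mmp12 and Adam8 peak in cluster 2 (153 and 246), Mmp27 in clusters 10 and 12, and Mmp9 in cluster 14 (399).

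Fibroblast-like nuclei formed 7 subclusters, F1 to F7, and most of them came from 1 library. F1 held 785 and 7 nuclei, and F5, led by the early response genes Fosb and Fos, held 27 and 531. F4 (199 and 0 nuclei) carried macrophage genes, with F13a1 among its leading genes. Mmp19 was highest in F5, at 200 CPM, against 42.5 to 78.2 CPM in the others. F2, led by the matrix gene Tnc and mitotic genes, was the subcluster with most nuclei of both libraries (162 and 60), and there Mmp19 was at 69.7 and 70.1 CPM. In F2 Timp1 was at 184 and 62.9 CPM, Timp2 at 220 and 53.2 CPM, and Adamts4 at 35.9 and 186 CPM. Adamts1 was at 77.3 and 121 CPM there. The F2 values of Timp1, Timp2, Adamts1 and Adamts4 thus had the direction of the class, and Mmp19 was level. Outside F2, Adamts1 had the class direction in F1 (30.8 and 184 CPM, 98 and 12 UMIs), F5 (41.3 and 74.7 CPM, 5 and 165 UMIs) and F6 (11.5 and 128 CPM, 2 and 22 UMIs). It went the other way in F3 (41.3 and 30.6 CPM, 33 and 6 UMIs) and F7 (90.8 and 73.9 CPM, 18 and 1 UMIs). Timp1 was nearly level in F6 (45.9 and 40.8 CPM), but on only 8 and 7 UMIs. By library, Mmp19 was at 74.4 CPM (9 UMIs) and 206 CPM (456 UMIs) in F5 and at 40.2 CPM (7 UMIs) and 99.1 CPM (17 UMIs) in F6, the direction of the class. Mmp19 went the other way in F1, at 79.2 CPM (252 UMIs) and 30.7 CPM (2 UMIs), and in F3, at 80.0 CPM (64 UMIs) and 20.4 CPM (4 UMIs).

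**Figure D5:**
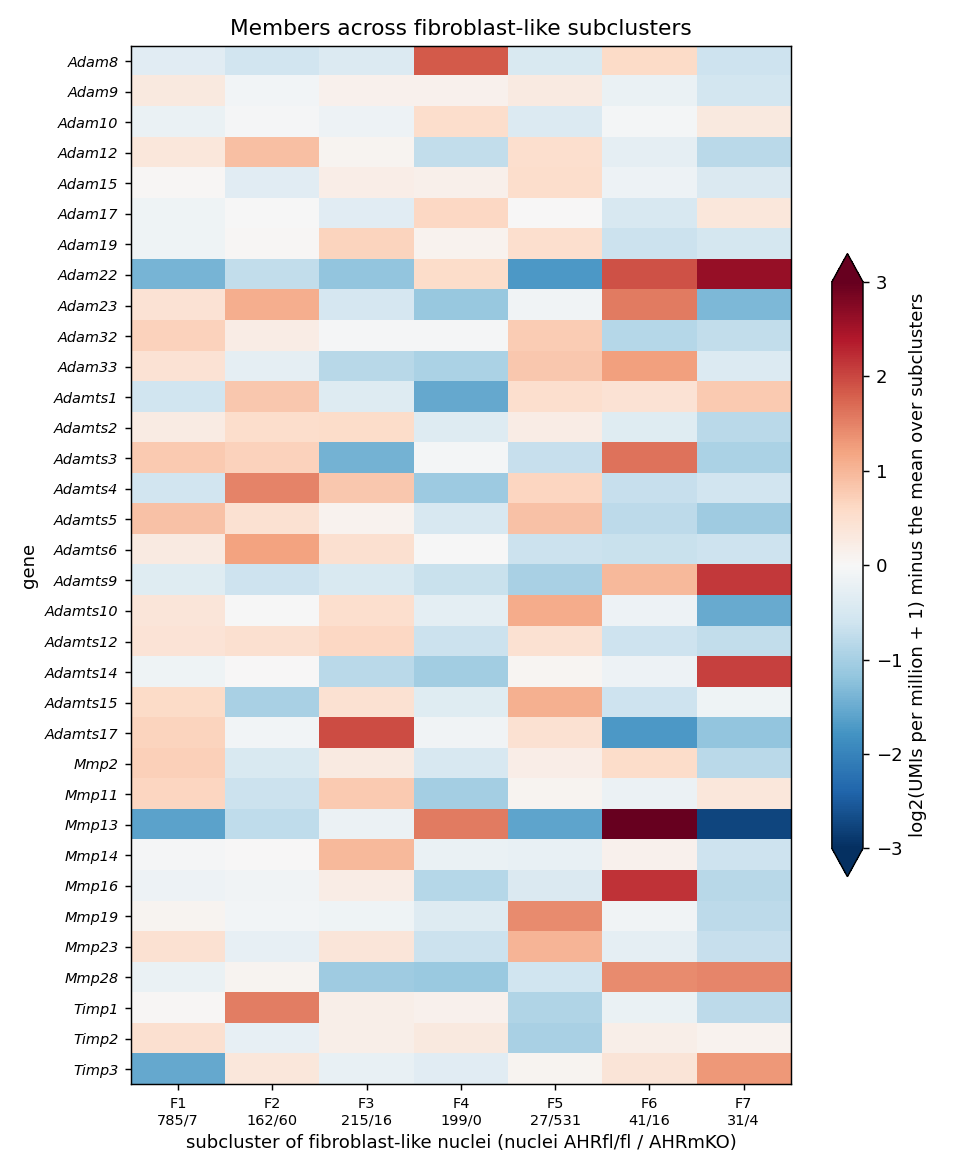
Members with 100 or more UMIs in fibroblast-like nuclei (rows) across subclusters F1 to F7 (columns, with the number of nuclei from the library labelled AHRfl/fl and the library labelled AHRmKO), as log2(CPM + 1) minus the mean over subclusters. The colour scale ends at 3 in both directions. Mmp13, Mmp16 and Adam23 are darkest red in F6, Timp1 and Adamts6 in F2, and Adam22 and Adamts9 in F7.

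ADAM sheddases cut growth factors, cytokines and receptors loose from the cell surface. Of 37 pairs in this group, 2 were past the fold and higher and 2 lower, next to 5.92% and 14.2% of all gene and class pairs. Adam10, which releases Notch and many other receptors, was at 243 and 248 CPM in endothelial-like nuclei, giving a log2 ratio of 0.03. In the other 4 classes its ratio lay between -0.56 and -0.41, for example at 210 and 152 CPM in macrophage-like nuclei. Adam17, which releases tumour necrosis factor and ligands of the epidermal growth factor receptor, was highest in macrophage-like nuclei, at 207 and 178 CPM (ratio -0.22). Adam9, Adam15 and Adam19 did not reach 2-fold in any class, and Adam19 had 475 and 497 CPM in macrophage-like nuclei, a ratio of 0.07.

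Adam12, a sheddase known from fusing myoblasts and from activated fibroblasts (chromosome 7, 133883199 to 134232146, minus strand), was highest in adipocyte-like nuclei, at 2885 CPM (2018 UMIs) and 3014 CPM (1202 UMIs). In fibroblast-like nuclei it stood at 1163 and 1591 CPM, giving a log2 ratio of 0.45. In endothelial-like nuclei it stood at 190 CPM (200 UMIs) and 485 CPM (361 UMIs), a ratio of 1.35 (1.10 to 1.61), with free RNA estimates of at most 28.4 CPM. In myofibre-like nuclei it stood at 28.6 and 53.4 CPM, a ratio of 0.89. Only the endothelial-like difference was past the fold.

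Adam8, a sheddase of leukocytes, was highest in macrophage-like nuclei, at 114 CPM (2514 UMIs) and 201 CPM (2346 UMIs), giving a log2 ratio of 0.81 (0.73 to 0.90) that did not reach 2-fold. Among the macrophage-like clusters it was highest in cluster 2, at 246 CPM. It was past the fold and lower in endothelial-like nuclei (30.4 and 10.7 CPM, ratio -1.46) and fibroblast-like nuclei (22.8 and 9.45 CPM, ratio -1.23). For Adam8 the free RNA estimates were 10.1 and 6.08 CPM in the first and 9.48 and 7.47 CPM in the second by the profile of 200 to under 500 UMIs, and 24.7 and 9.92 CPM and 23.1 and 12.2 CPM by that of at most 100. With these subtracted the fibroblast-like Adam8 ratio was -2.50 by the former, while the latter left nothing in either library. Macrophage markers were lower in the same direction in both classes. Of the 160 fibroblast-like Adam8 UMIs of the library labelled AHRfl/fl, 92 lay in F4, at 56.4 CPM. F4 carried macrophage genes and held no nucleus of the other library. Adam8 was level in F2 (9.80 and 9.67 CPM). In the other subclusters with nuclei of both libraries it was lower in the library labelled AHRmKO, with few UMIs in at least 1 library. In myofibre-like nuclei Adam8 was past the fold and higher (18.9 and 38.9 CPM, ratio 1.02), with estimates of 8.49 and 9.68 CPM or 19.2 and 12.8 CPM. All these Adam8 differences turned under 1 setting each, to 0.89 in endothelial-like nuclei by marker score, 0.21 in fibroblast-like nuclei at resolution 1.6 and -0.45 in myofibre-like nuclei with separate clustering.

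Among the other ADAM genes, Adam22 and Adam23, which lack a working catalytic site and are best known from synapses, did not pass the fold in any class. Adam22 had 57.4 and 56.1 CPM in macrophage-like nuclei, giving a log2 ratio of -0.03, and Adam23 at 115 and 119 CPM in fibroblast-like nuclei, a ratio of 0.04. Adam23 was at 289 CPM in the tenocyte-marker subcluster F6 and Adam22 at 194 CPM in F7, which is led by Myh11. Adam4 was at 2.14 and 10.4 CPM in satellite-like nuclei, a ratio of 2.04, but it overlaps the more abundant Cox16 on the same strand, so its reads may belong to Cox16. Adam18 was 5.87-fold higher in satellite-like nuclei than in any other class, at 14.7 and 7.65 CPM.

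Proteoglycan-cleaving ADAMTS proteases, the aggrecanases and versicanases, gave 19 pairs, of which 4 were past the fold and higher and 2 lower, next to 5.92% and 14.2% of all pairs. Adamts1, a versicanase that also restrains vessel growth (chromosome 16, 85793827 to 85803113, minus strand), was at 107 CPM (113 UMIs) and 348 CPM (259 UMIs) in endothelial-like nuclei, giving a log2 ratio of 1.69 (1.37 to 2.03). In fibroblast-like nuclei it stood at 36.3 CPM (255 UMIs) and 83.4 CPM (256 UMIs), a ratio of 1.19 (0.94 to 1.46). Free RNA was estimated to give at most 4.55 CPM in these classes. In satellite-like nuclei the ratio was -0.91, at 29.4 and 15.4 CPM, which did not reach 2-fold. Adamts4 was at 21.6 CPM (152 UMIs) and 67.4 CPM (207 UMIs) in fibroblast-like nuclei, a ratio of 1.62, and at 43.7 and 40.3 CPM in satellite-like nuclei, a ratio of -0.12. Counts of Adamts4 are uncertain, since strand use in counting is not given.

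Adamts5 was at 228 and 244 CPM in fibroblast-like nuclei, giving a log2 ratio of 0.10, and highest in adipocyte-like nuclei. In satellite-like nuclei it stood at 152 CPM (1782 UMIs) and 53.1 CPM (528 UMIs), a ratio of -1.51 (-1.66 to -1.38). In myofibre-like nuclei it stood at 10.1 and 21.6 CPM, a ratio of 1.07, with free RNA estimates of 6.90 and 6.66 CPM by the profile of 200 to under 500 UMIs and 11.8 and 5.80 CPM by that of at most 100. This myofibre-like Adamts5 ratio turned under 3 of 15 settings, to as low as -0.33, and stayed past the fold under 6. The satellite-like difference was also past the fold within the shared cycling cluster 5, at a ratio of -1.22, but not within cluster 6, at a ratio of -0.81. Adamts9 was at 35.4 and 16.7 CPM in satellite-like nuclei (ratio -1.06), with ratios of -0.96 and -0.19 within clusters 5 and 6 that were not past the fold. In endothelial-like nuclei the Adamts9 ratio was 0.41, and the gene overlaps the more abundant 9530026P05Rik on the opposite strand. Adamts15 stood at 71.3 and 79.6 CPM in satellite-like nuclei, close to its level in adipocyte-like nuclei, and Adamts20 was highest in myofibre-like nuclei, at 45.7 and 28.8 CPM. Neither reached 2-fold between libraries in these classes, but within cluster 6 Adamts15 stood at 19.5 CPM (8 UMIs) and 93.5 CPM (471 UMIs), a ratio of 2.23. Adam8, Adam22 and Adamts10 were also past the fold and higher within cluster 6, at ratios of 1.06, 2.58 and 1.52. They had only 9, 1 and 8 UMIs there in the library labelled AHRfl/fl.

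The procollagen N-propeptidases trim fibrillar procollagens so that they can assemble. Adamts2, the main enzyme of this group, was at 309 and 325 CPM in fibroblast-like nuclei, giving a log2 ratio of 0.08. Adamts3 was at 41.3 and 19.5 CPM there, a ratio of -1.06 (-1.50 to -0.67). Adamts14 was instead a gene of muscle nuclei, at 203 CPM in the immature myonucleus-like nuclei, which come from the library labelled AHRfl/fl. In myofibre-like nuclei its levels were 75.4 CPM (780 UMIs) and 204 CPM (2144 UMIs), a ratio of 1.43 (1.32 to 1.56). By cluster, Adamts14 was at 252 CPM in cluster 15, mostly of the library labelled AHRmKO and with 8 of 11 immature myonucleus markers raised. It was at 82.7 CPM in cluster 7, wholly of the library labelled AHRfl/fl and with 7 of 11 raised, and at 12.3 CPM in cluster 19 and 9.7 CPM in cluster 9. When the libraries were clustered separately the ratio was -3.23, and the cause was not tested. In satellite-like nuclei Adamts14 was at 91.8 and 119 CPM, a ratio of 0.38.

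Other ADAMTS genes were mostly fibroblast-like. Adamts12, which cuts cartilage matrix proteins, was at 802 and 1019 CPM in fibroblast-like nuclei (log2 ratio 0.35) and at 171 and 111 CPM in satellite-like nuclei (ratio -0.62). Adamts6 was at 466 CPM (3275 UMIs) and 218 CPM (668 UMIs) in fibroblast-like nuclei, a ratio of -1.10 (-1.22 to -0.98). In satellite-like nuclei it stood at 337 CPM (3946 UMIs) and 158 CPM (1567 UMIs), a ratio of -1.09 (-1.18 to -1.01), and in endothelial-like nuclei at 222 and 212 CPM, a ratio of -0.07. Adamts6 had a ratio of -1.01 within the shared cluster 5 and -0.17 within cluster 6, which is mostly of the library labelled AHRmKO. Adamts10, a protease that binds fibrillin, was at 132 and 246 CPM in fibroblast-like nuclei (ratio 0.90) and at 53.9 and 92.2 CPM in macrophage-like nuclei (ratio 0.77), both short of 2-fold. In myofibre-like nuclei Adamts10 was past the fold at 4.55 and 11.5 CPM (ratio 1.25), with free RNA estimates of 1.55 and 6.27 CPM by the profile of 200 to under 500 UMIs and 8.60 and 6.98 CPM by that of at most 100. It stayed past the fold under 7 of 15 settings and turned to -0.33 with a minimum of 4000 UMIs. Adamts7 was past the fold there too, at 17.7 and 39.4 CPM (ratio 1.13), and went to -2.24 with separate clustering. Adamts7 overlaps the more abundant Tbc1d2b on the opposite strand, so its counts are uncertain.

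A list of 40 genes around these enzymes (activators, other inhibitors, partners of ADAM10 and ADAM17, ADAMTS-like proteins and substrates) was read in the same way. Past the fold were 0 higher and 8 lower of 19 tested in endothelial-like nuclei, where 4.09% and 18.6% of all genes were. In fibroblast-like nuclei 2 and 5 of 33 were, next to 5.47% and 14.5% of all genes, so the lower count is at the background. The counts were 1 and 7 of 24 in macrophage-like nuclei (3.94% and 13.5% of all genes), 3 and 5 of 28 in myofibre-like nuclei (8.9% and 13.5%), and 3 and 9 of 31 in satellite-like nuclei (6.57% and 12.4%). Rhbdf1, an inactive rhomboid protein that escorts ADAM17 to the cell surface, was at 18.8 and 73.0 CPM in fibroblast-like nuclei, giving a log2 ratio of 1.93, and was past the fold and higher in myofibre-like and satellite-like nuclei as well. In fibroblast-like nuclei Plaur, the urokinase receptor, had a ratio of -1.50, the proteoglycan Bgn -1.31 (770 and 311 CPM) and Bsg, which induces MMPs in neighbouring cells, -1.30. In macrophage-like nuclei the largest differences were in matrix substrates: Col3a1 at 363 and 37.8 CPM (ratio -3.25), Dcn at 77.2 and 7.89 CPM (ratio -3.21), Bgn (ratio -3.00) and Col1a1 (ratio -2.61). Dcn, Col1a1 and Col3a1 are also among the 12 fibroblast markers that were lower there, and the part that free RNA has in these ratios was not tested.

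Genes with the most similar pattern were sought for Timp1, Mmp14 and Adam12 over 13 points, each a class in a library. The points share 2 libraries and differ in depth, so the correlations of log2 levels are a description. For Timp1 the highest were Gpx7 (Pearson r = 0.924), Cops2 (0.921) and Kdelr2 (0.921), and the most similar member was Adamts3 (0.754). For Mmp14 they were Il13ra1 (0.958), Golph3 (0.948) and Gm44899 (0.944), and for Adam12 Il1r1 (0.952), Prickle2 (0.950) and Dlc1 (0.950). The most similar members were Adamts10 for Mmp14 (0.832) and Adamts12 for Adam12 (0.907).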

How the data were processed

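The values the authors deposited are raw UMI counts for each gene in each barcode, with all barcodes listed and no normalization. Per the submitters' processing notes Cell Ranger 7.0.1 and the mm10 build were used, and per the file headers the matrices follow the Cell Ranger 4 format. Whether introns were counted, whether strand was used and which annotation was used are not given in the sources used here. Gene positions are from GENCODE M21 and promoters from RefSeq (GRCm38.p6).

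Barcodes needed 2000 UMIs, 200 genes and a low mitochondrial share. Its limit was 5% or, if higher, the median plus 3 scaled median absolute deviations, which came to 5.0% and 8.97% (medians 0.970% and 2.66%). The barcodes with the top 6.79% and 3.11% of Scrublet scores (1154 and 241) were left out as doublets, at 0.4% per 1000 barcodes. After scaling to 10000 counts and log transformation, 2000 variable genes other than the members gave 30 principal components, and both libraries were clustered together (15 neighbours, Leiden resolution 0.8, no integration). Naming needed at least 3 markers of a class to exceed the median of other clusters 2-fold, with 10 CPM added. Clusters with more foreign than own markers among their 10 leading genes, or with a median depth over 2 times the general one, stayed unnamed. Both thresholds were chosen with the data in view, and all names come from markers.

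Sums per class and library were then compared. Named members have 100 or more UMIs in 1 class, and the partner genes named have the largest differences in fibroblast-like and macrophage-like nuclei. The free RNA share of a class was estimated from myofibre markers, or from macrophage markers in muscle classes, and is an upper estimate. It came to 31.9% and 18.8% of UMIs in macrophage-like nuclei by the profile of at most 100 UMIs, and to 18.5% and 22.8% by the profile of 200 to under 500 UMIs. The members, lists and rules were chosen with earlier results of these data known. Scripts were tested on simulated data. The software was Python 3.11.15 with scanpy 1.11.5 and anndata 0.12.19, scipy 1.17.1 and numpy 2.4.6, igraph 0.11.9, scikit-learn 1.9.0, pandas 2.3.3 and matplotlib 3.10.9.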

Additional observations from a re-analysis of the deposited data

Results flagged for a closer look

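Adam8, Adamts5 and Mmp19 are listed here because they were past 2-fold in opposite directions in different classes. Adam8 had a log2 ratio of -1.46 in endothelial-like nuclei and -1.23 in fibroblast-like nuclei, but 1.02 in myofibre-like nuclei. Adamts5 had a ratio of 1.07 in myofibre-like nuclei and -1.51 in satellite-like nuclei. Mmp19 had a ratio of 1.22 in fibroblast-like nuclei and -2.00 in satellite-like nuclei. With 1 library per group the difference between classes was not tested. Mmp19 kept both directions past 2-fold under every processing setting tried that gave a value, the comparisons within single clusters and subclusters aside. Among fibroblast-like subclusters, Mmp19 had the class direction in F5 and F6 and was level in F2 (69.7 and 70.1 CPM). It went the other way in F1 and F3. Adam8 reversed in each of its 3 classes, and Adamts5 in myofibre-like nuclei, under at least 1 setting. Of the 160 fibroblast-like Adam8 UMIs of the library labelled AHRfl/fl, 92 lay in F4, which held no nucleus of the other library.

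Mmp9 reached 399 CPM (344 to 459) in cluster 14, which had no class name and is listed because it lies outside the compared classes. The cluster held 123 of 23354 nuclei (0.527%) and 194 of the 462 Mmp9 UMIs (42.0%). The library labelled AHRfl/fl gave 77 of these in 98 nuclei and the other gave 117 in 25 nuclei, and all other nuclei together were at 2.51 CPM. Of the 26 nuclei with a Mmp9 UMI, 22 also had one of Ctsk, a collagen-degrading cysteine protease, 24 of Acp5, an acid phosphatase, and 22 of Atp6v0d2, a proton pump subunit. Cdh19, the first leading gene of the cluster, had UMIs in 14 of the 123 nuclei and in none of the 26.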

How the results depend on the processing

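No paired analysis was possible because each group has 1 library, and for the same reason no replicate could be left out. Against 12 higher pairs, a mitochondrial limit of 5% in both libraries gave 6, no limit 7, class by marker score 27 and a 1.5-fold limit 25. Against 21 lower pairs, separate clustering gave 33, class by marker score 90, a minimum of 10 UMIs 51 and a 1.5-fold limit 35. These counts are not shares of the same pairs, since the classes and pairs compared can change with the setting. By marker score every barcode gets a class from any of the marker lists, and the minimum of 10 UMIs also dropped the CPM minimum. Shares over all genes were not taken for these settings, so the counts have no background beside them. The 17 members highest in fibroblast-like nuclei became 14 to 19 under the alternatives. Of 33 pairs past the fold, 9 stayed so under every setting that gave a value, leaving aside the comparison within single clusters below: Adam12, Adamts1 and Timp2 in endothelial-like nuclei, Adamts1, Adamts4, Mmp19 and Timp2 in fibroblast-like nuclei, and Mmp19 and Timp3 in satellite-like nuclei. The fibroblast-like subclusters F1 to F7 were not among these settings. Reversed under at least 1 setting were 10. By marker score Adam8 in endothelial-like nuclei went to 0.89, and at resolution 1.6 Adam8 in fibroblast-like nuclei to 0.21. In myofibre-like nuclei separate clustering gave -0.45 for Adam8, -2.24 for Adamts7 and -3.23 for Adamts14. Adamts5 there went to -0.33 with a minimum of 1000 UMIs, -0.33 with doublets kept and -0.27 with the 5% limit. With a minimum of 4000 UMIs Adamts10 went to -0.33 and Mmp11 to 1.28, and Mmp11 went to 1.35 at resolution 0.4. Subtracting free RNA of barcodes with 200 to under 500 UMIs gave Timp1 1.75 in myofibre-like and 0.13 in satellite-like nuclei. Apart from the subtraction itself, the cause was not tested. Within clusters holding over 100 nuclei of each library, chosen after the data had been seen, Timp1 was at -1.02 (cluster 5) and -2.01 (cluster 6, under the minimums) in satellite-like nuclei and -4.25 (cluster 12) in macrophage-like nuclei. The cluster 12 ratio rests on 84 and 3 UMIs (30.5 and 1.13 CPM). Free RNA was not subtracted within clusters, and its part in these Timp1 ratios was not tested.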
